A study of Mus musculus with 18 samples.

Results

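The 10 genes described here, of 38355 counted, encode 3 matrix metalloproteinases (Mmp2, Mmp3 and Mmp14), the 4 tissue inhibitors of metalloproteinases (Timp1, Timp2, Timp3 and Timp4) and 3 lysyl oxidases (Lox, Loxl1 and Loxl2). They were chosen by name, their Ensembl identifiers were matched to symbols, and all 10 passed the low-count filter, which left 14876 genes to test. Their RNA was measured in 18 libraries of left ventricular myocardium from mice of the (DBA/2J x C3HeB/FeJ)F1 background. The groups were cycD2 Shunt (n = 5), cycD2 TAC (n = 3, replicates 1, 2 and 4), cycD2 sham (n = 5) and WT (n = 5). The Shunt, TAC and sham libraries are all labelled as MHC-cycD2 transgenic, with a myosin heavy chain promoter that drives the cell cycle protein cyclin D2 in heart muscle cells. The Shunt joins the aorta and the caval vein and loads the heart with volume, and TAC, transverse aortic constriction, loads it with pressure. Operations were done at 8 weeks of age, WT mice had no operation and no transgene, and the labels describe a sham for each procedure without saying which one a sham mouse had. A difference between sham and WT therefore joins the transgene and the sham operation. The sex of each mouse, the age at tissue collection and whether replicates came from separate litters were not given in the sources used here, so p-values measure the spread between these libraries, which may in part be technical.

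Matrix metalloproteinases are zinc enzymes, made as inactive precursors, that cut collagens, other matrix proteins and growth factors outside the cell. TIMPs bind their active sites and block them, and lysyl oxidases do the opposite work of cross-linking collagen and elastin into fibres that resist cutting. In the heart, fibroblasts are a main source of these proteins, and the balance among them is a textbook theme of fibrosis and chamber remodelling under load.

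Promoter sequence was available for 6 of the 10 genes (Mmp3, Mmp14, Timp1, Timp2, Timp3 and Timp4) from RefSeq on GRCm38.p6. The 250 bases before the start site of 4 of them are shown because the results below turn on their different patterns. Timp1 and Mmp14 were high in TAC, Timp3 was not, and Mmp3 varied widely within each group. The windows lie at chrX:20869916-20870165 (Timp1), chr14:54431348-54431597 (Mmp14), chr10:86300162-86300411 (Timp3) and chr9:7445572-7445821 (Mmp3), all on the plus strand, and are written from 5′ to 3′. Capitals mark a GC box (GGGCGG, or CCGCCC where it is read on the other strand) in the first 3, and in Mmp3 an AP-1 motif (TGANTCA) followed by a TATA box (TATAAA).
Timp1: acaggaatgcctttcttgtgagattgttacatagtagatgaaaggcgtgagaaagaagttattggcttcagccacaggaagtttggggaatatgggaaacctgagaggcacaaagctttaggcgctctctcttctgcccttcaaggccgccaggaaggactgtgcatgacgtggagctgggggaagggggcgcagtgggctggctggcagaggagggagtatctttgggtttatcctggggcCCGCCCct
Mmp14: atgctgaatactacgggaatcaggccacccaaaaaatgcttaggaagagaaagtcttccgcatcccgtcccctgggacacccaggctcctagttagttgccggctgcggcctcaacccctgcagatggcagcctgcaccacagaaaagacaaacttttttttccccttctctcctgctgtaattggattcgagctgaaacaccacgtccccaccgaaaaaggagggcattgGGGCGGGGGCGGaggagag
Timp3: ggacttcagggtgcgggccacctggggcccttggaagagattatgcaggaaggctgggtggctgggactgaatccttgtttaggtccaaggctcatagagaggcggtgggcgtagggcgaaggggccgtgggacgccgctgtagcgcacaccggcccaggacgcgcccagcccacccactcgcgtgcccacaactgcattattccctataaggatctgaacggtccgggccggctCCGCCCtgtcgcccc
Mmp3: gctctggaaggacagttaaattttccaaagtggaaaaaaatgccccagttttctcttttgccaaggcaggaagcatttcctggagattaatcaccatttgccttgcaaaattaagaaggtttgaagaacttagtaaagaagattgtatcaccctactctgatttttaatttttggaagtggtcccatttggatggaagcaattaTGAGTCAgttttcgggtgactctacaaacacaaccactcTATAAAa

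The search covered both strands of 300 bases, 250 before to 50 after the start site, in 32851 promoters. The AP-1 motif was in 7.81% of them, the TATA box in 13.6% and the GC box in 35.7%, and no match in the 6 windows overlapped another. Mmp3 held the AP-1 motif at position -46 and the TATA box at -7, each counted from the motif's start. It was the only member of the 6 with either motif. Timp1, Timp2, Timp3 and Mmp14 held at least 1 GC box, and Timp4 held none of the motifs searched. The E-box (CACGTG, 7.15% of promoters) and the D-box (TTANGTAA, 2.32%), to which clock factors can bind, and the SMAD box (GTCTAGAC, 0.213%) were in none of the 6 windows.

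Depth was 23900314 to 30594075 gene counts per library in Shunt, 23630932 to 24740087 in TAC, 22162960 to 26521057 in sham and 19297821 to 22713301 in WT. Ccnd2, the gene of the transgene product, had 17740 to 22210 CPM in Shunt, 21130 to 30480 CPM in sham and 141 to 189 CPM in WT, where CPM are counts scaled to a common library size with TMM factors. In TAC it had 22050 CPM in replicate 1 and 25840 CPM in replicate 4, and 228 CPM in the library labelled cycD2 TAC replicate 2, which is near the WT level and goes against its label. The fold changes of the 10 genes in TAC and the counts of genes called in TAC against sham are therefore given with and without that library. Y-linked Ddx3y was at 0 to 0.0372 CPM in Shunt and at 0.160 and 0.355 CPM in TAC replicates 1 and 2, against 85.3 CPM in TAC replicate 4, 93.1 to 103 CPM in sham and 114 to 131 CPM in WT, and Xist was high where Ddx3y was near 0. The log2 CPM of Arntl minus that of Dbp, a pair of clock genes that peak at opposite times of day, was -8.42 to -2.27 in Shunt and 2.43 to 3.07 in TAC. It spanned -8.08 to 2.34 in sham and -6.36 to 1.98 in WT. Summed ventricular muscle markers (Myh6, Myl2, Tnnt2, Actc1 and Tnni3) were at 49310 CPM or more in every library, while summed atrial markers (Myl7, Myl4 and Sln) reached 471 CPM in Shunt, 362 CPM in TAC, 731 CPM in sham and 29.7 CPM in WT.

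Under pressure load, 7 of the 10 genes were higher in TAC than in sham and none was lower (edgeR's quasi-likelihood test, Benjamini-Hochberg adjusted p under 0.05 over all 14876 genes). Timp1 rose most, 11.8-fold, followed by Lox (7.25-fold), Loxl1 (3.54-fold), Mmp14 (3.31-fold), Loxl2 (3.04-fold), Mmp2 (2.63-fold) and Timp2 (1.36-fold). Of all genes tested, 16.4% were called higher and 14.5% lower in TAC. The median log2 fold change was 1.50 over the 10 genes and 0.007 over all genes tested. For 6 of the 10, every TAC library lay above every sham library, which held for 14.5% of all genes. Timp3, Timp4 and Mmp3 did not pass the test. Tissue RNA cannot tell more cells of a type from more RNA per cell.

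**Figure D1:**
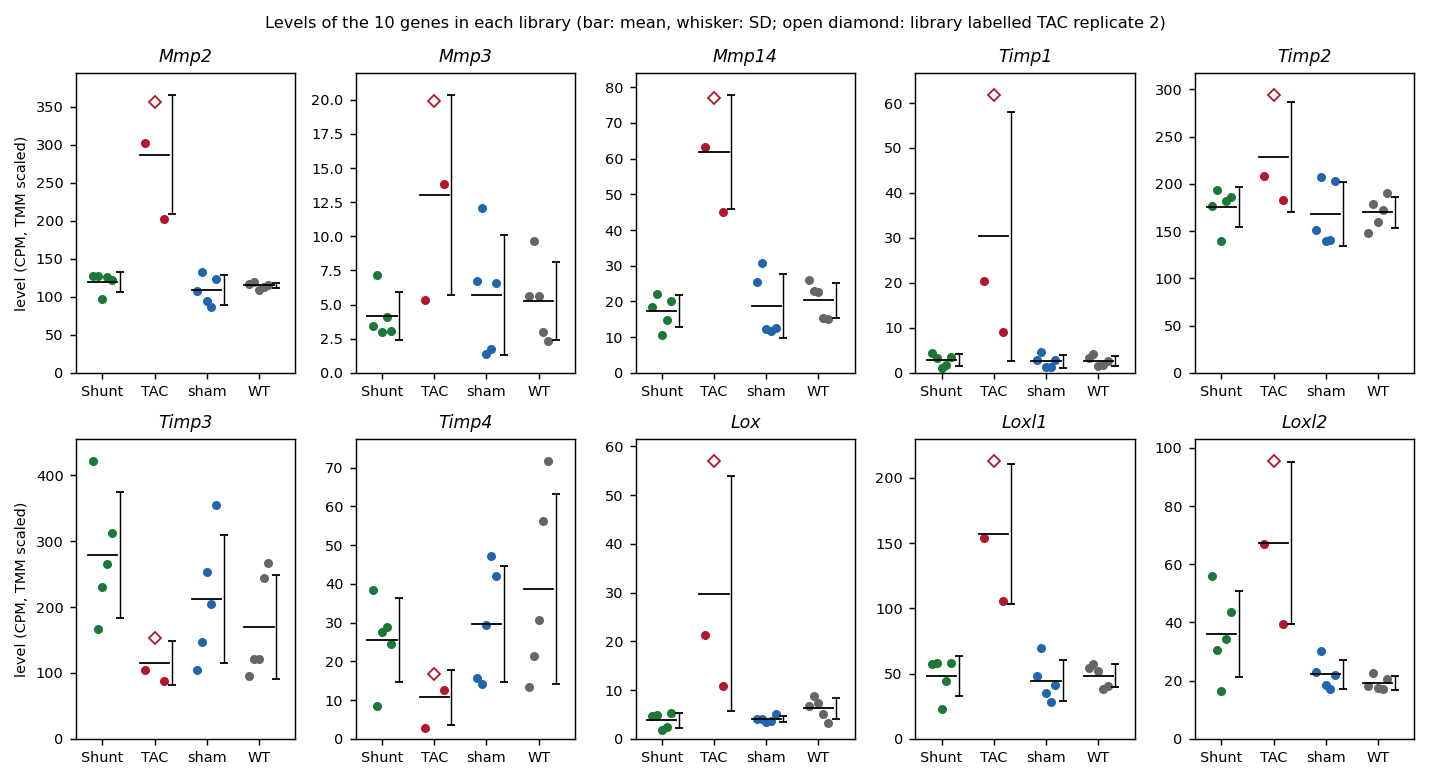
Level of each of the 10 genes (CPM, linear axis from 0) in every library of Shunt (n = 5), TAC (n = 3), sham (n = 5) and WT (n = 5). Points are libraries, the open diamond is the library labelled cycD2 TAC replicate 2, bars are group means and whiskers the SD. The TAC points sit above all other points for Mmp2, Mmp14, Timp1, Lox and Loxl1, and the diamond is the highest TAC point in every panel.

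Among the proteases, the level of Mmp2 was 127, 127, 96.5, 127 and 122 CPM in the Shunt libraries, in replicate order. The TAC libraries had 302, 356 and 202 CPM, against 108, 133, 94.0, 87.1 and 124 CPM in the sham libraries and 117, 119, 109, 113 and 116 CPM in the WT libraries. Mmp2 makes gelatinase A, which cuts denatured collagen and basement membrane collagen. Its 3 TAC values stood above all 15 others, and outside TAC it varied little (coefficient of variation 11.1% in Shunt, 17.8% in sham and 3.32% in WT). TAC differed from sham by a log2 fold change of 1.39 ± 0.15 (SE, with adjusted p = 1.00e-05), and 1.19 without TAC replicate 2. Mmp2 lies at chr8:92827291-92853420 on the plus strand of GRCm38, the build of all gene positions given here.

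Mmp14 was measured at 18.4, 22.1, 10.7, 14.9 and 20.0 CPM in Shunt and at 63.3, 76.9 and 45.1 CPM in TAC, in replicate order. Sham hearts had 25.4, 30.9, 12.3, 11.6 and 12.6 CPM of Mmp14 and WT hearts 25.9, 22.9, 22.7, 15.2 and 15.1 CPM. Mmp14, at chr14:54431612-54445364, makes the membrane-bound protease MT1-MMP, which cuts fibrillar collagen and activates the Mmp2 precursor on the cell surface together with the Timp2 protein. The TAC libraries lay above all others, while sham split into a pair at 25.4 and 30.9 CPM and 3 libraries between 11.6 and 12.6 CPM. Against sham, the TAC log2 fold change was 1.73 ± 0.32 (SE, with adjusted p = 7.83e-04), and 1.53 without TAC replicate 2. Mmp3 had 3.46, 7.18, 3.02, 4.06 and 3.06 CPM in Shunt replicates 1 to 5. Its level was 5.35, 19.9 and 13.8 CPM in TAC replicates 1, 2 and 4, against 6.72, 12.1, 1.38, 1.78 and 6.55 CPM in sham replicates 1 to 5 and 5.63, 9.64, 5.60, 2.98 and 2.36 CPM in WT replicates 1 to 5. Mmp3, at chr9:7445822-7455975, makes stromelysin 1, which cuts proteoglycans, laminin and fibronectin and activates other metalloproteinases. TAC replicate 1 lay inside the sham range and the other TAC libraries above it. Its TAC against sham log2 fold change was 1.18 (95% interval -0.08 to 2.44, adjusted p = 0.1445) and 0.73 without TAC replicate 2, and without sham replicate 2 it was 1.65 and passed (adjusted p = 0.0421, and 0.0421 to 0.6386 over the alternatives). The highest Mmp3 of each group was in Shunt 2, TAC 2, sham 2 and WT 2. Their mean atrial marker levels were 5.53, 6.34, 6.53 and 2.80 log2 CPM. The highest atrial means of Shunt, TAC and sham were in Shunt 4 (6.84), TAC 4 (6.43) and sham 5 (7.36), while that of WT was in WT 2 (2.80). The cause of the spread of Mmp3 was not tested. With the mean atrial level as a covariate, the log2 fold change of Mmp3 in TAC against sham was 1.00 (adjusted p = 0.0513), and with the clock difference in its place it was 0.37 (0.6386).

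Among the inhibitors, the level of Timp1 was 4.42, 3.31, 1.17, 1.79 and 3.54 CPM in the Shunt libraries, in replicate order. The TAC libraries had 20.4, 61.7 and 9.15 CPM, against 2.75, 4.60, 1.20, 1.23 and 2.92 CPM in the sham libraries and 3.39, 4.12, 1.52, 1.76 and 2.63 CPM in the WT libraries. Timp1, at chrX:20870166-20874735 (ENSMUSG00000001131), is the inhibitor best known to be induced in wounded and inflamed tissue, and its protein also acts as a growth factor. Every TAC library lay above every other library, and the TAC libraries also differed widely among themselves. Raw counts were 26 to 122 outside TAC, so counting error adds to the spread there. For Timp1, TAC against sham gave a log2 fold change of 3.56 ± 0.56 (SE, with adjusted p = 2.48e-04), and without TAC replicate 2 it was 2.51, or a 5.70-fold rise.

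Timp2 was measured at 176, 193, 139.5, 182 and 186 CPM in Shunt and at 208, 294 and 183 CPM in TAC, in replicate order. Sham hearts had 151, 207, 139.6, 141 and 203 CPM of Timp2 and WT hearts 148, 179, 159.6, 172 and 191 CPM. Timp2, at chr11:118301069-118355740 on the minus strand, is the inhibitor that also helps to activate Mmp2. The groups overlapped, since TAC replicate 4 lay below sham replicates 2 and 5. Timp2 differed between TAC and sham by a log2 fold change of 0.44 ± 0.16 (SE, with adjusted p = 0.0414). It was 0.20 without TAC replicate 2, with an adjusted p of 0.3701 (0.0083 to 0.8405 over the alternatives), so the call rests on that library and is also lost without TAC replicate 1, sham replicate 1, sham replicate 3 or sham replicate 4.

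Timp3 had 421, 167, 230.4, 265 and 313 CPM in Shunt replicates 1 to 5. Its level was 105, 152 and 87.2 CPM in TAC replicates 1, 2 and 4, against 105, 146, 253, 204 and 355 CPM in sham replicates 1 to 5 and 94.7, 121, 122, 244 and 266 CPM in WT replicates 1 to 5. Timp3, at chr10:86300372-86349506, makes the inhibitor that stays bound to the matrix and also blocks ADAM proteases. The values fell into 2 ranges within sham and within WT, and the TAC values lay in or near the lower one. TAC against sham gave a log2 fold change of -0.89 (95% interval -1.81 to 0.03, adjusted p = 0.1312) and -1.16 without TAC replicate 2. Timp3 shares 1733 exonic bases with Syn3, whose level was at most 0.708 CPM in any library. The library kit does not keep the strand, and reads in the shared bases may not have been assigned to Timp3.

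The level of Timp4 was 38.3, 8.57, 27.5, 29.0 and 24.4 CPM in the Shunt libraries, in replicate order. The TAC libraries had 2.76, 16.7 and 12.6 CPM, against 15.7, 14.0, 29.3, 47.2 and 41.9 CPM in the sham libraries and 13.4, 21.5, 30.8, 56.3 and 71.6 CPM in the WT libraries. Timp4, at chr6:115241892-115252205 on the minus strand, makes a TIMP known for its high level in heart. TAC replicate 2 lay within the sham range and the other TAC libraries below it, with TAC replicate 1 the lowest of the 18 libraries. In TAC against sham its log2 fold change was -1.47 (95% interval -2.91 to -0.03, adjusted p = 0.1132) and -1.97 without TAC replicate 2, when both TAC libraries were below every sham library and the test still did not pass. Timp4 overlaps Syn2 (90 exonic bases, 7.17 to 17.0 CPM).

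Among the cross-linking enzymes, Lox was measured at 4.73, 4.77, 1.78, 2.50 and 5.27 CPM in Shunt and at 21.4, 56.9 and 10.9 CPM in TAC, in replicate order. Sham hearts had 4.14, 4.11, 3.54, 3.70 and 5.00 CPM of Lox and WT hearts 6.78, 8.87, 7.37, 5.16 and 3.30 CPM. Lox, at chr18:52516067-52529867 on the minus strand, makes lysyl oxidase, the enzyme that starts collagen and elastin cross-links. All 3 TAC values exceeded all 15 others, with TAC replicate 2 the highest by far. For Lox, TAC against sham gave a log2 fold change of 2.86 ± 0.43 (SE, with adjusted p = 1.74e-04), and without TAC replicate 2 it was 1.96, or 3.89-fold.

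Loxl1 had 57.5, 57.9, 23.0, 44.1 and 58.2 CPM in Shunt replicates 1 to 5. Its level was 154, 213 and 106 CPM in TAC replicates 1, 2 and 4, against 48.1, 69.4, 34.9, 28.3 and 41.4 CPM in sham replicates 1 to 5 and 54.6, 57.4, 51.8, 37.9 and 40.4 CPM in WT replicates 1 to 5. Loxl1, at chr9:58287738-58313186 on the minus strand, makes the lysyl oxidase that in mice is needed for elastic fibre upkeep. The TAC libraries lay above all others. TAC exceeded sham by a log2 fold change of 1.82 ± 0.31 (SE, with adjusted p = 3.87e-04), and 1.53 without TAC replicate 2. The level of Loxl2 was 56.0, 30.4, 16.4, 34.3 and 43.6 CPM in the Shunt libraries, in replicate order. The TAC libraries had 67.0, 95.4 and 39.5 CPM, against 22.8, 30.2, 18.6, 17.1 and 22.0 CPM in the sham libraries and 18.2, 22.7, 17.4, 17.1 and 20.6 CPM in the WT libraries. Loxl2, at chr14:69609068-69695834, makes a lysyl oxidase that acts on collagen, including basement membrane collagen. TAC lay above sham throughout, but Shunt replicates 1 and 5 lay above TAC replicate 4. Loxl2 differed between TAC and sham by a log2 fold change of 1.60 ± 0.31 (SE, with adjusted p = 0.0011), and 1.25 without TAC replicate 2.

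Without TAC replicate 2, 6 of the 10 genes were higher in TAC than in sham and none was lower, beside 10.9% of 15033 genes called higher and 10.8% called lower. Every TAC library was then above every sham library for 6 of the 10 (18.7% of all genes) and below for 1, Timp4 (16.9%). The call that was lost was Timp2, and the median of the 10 genes was 1.22. TAC replicate 2 was the highest TAC library for all 10 genes and the highest of the 18 libraries for 8, and TAC replicate 4 was the lowest TAC library for 8. TAC replicate 4, the TAC library with Y-linked expression like that of sham, lay above every sham library for 7 genes (Mmp2, Mmp3, Mmp14, Timp1, Lox, Loxl1 and Loxl2). TAC replicate 1 also did so for 7, with Timp2 in place of Mmp3. The shares of all genes highest or lowest in a TAC library, or above every sham library in a single TAC library, were not computed. A part of sex in these counts was not tested. With the mean level of Y-linked genes as a covariate, the count higher in TAC was 1, Mmp2 (log2 fold change 0.88, adjusted p = 0.0159, which is the highest over the alternatives, from 8.85e-16), where 287 of 14876 genes were called higher. Adjusting for the clock difference left 6, where 1828 of 14876 genes were called higher.

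**Figure D2:**
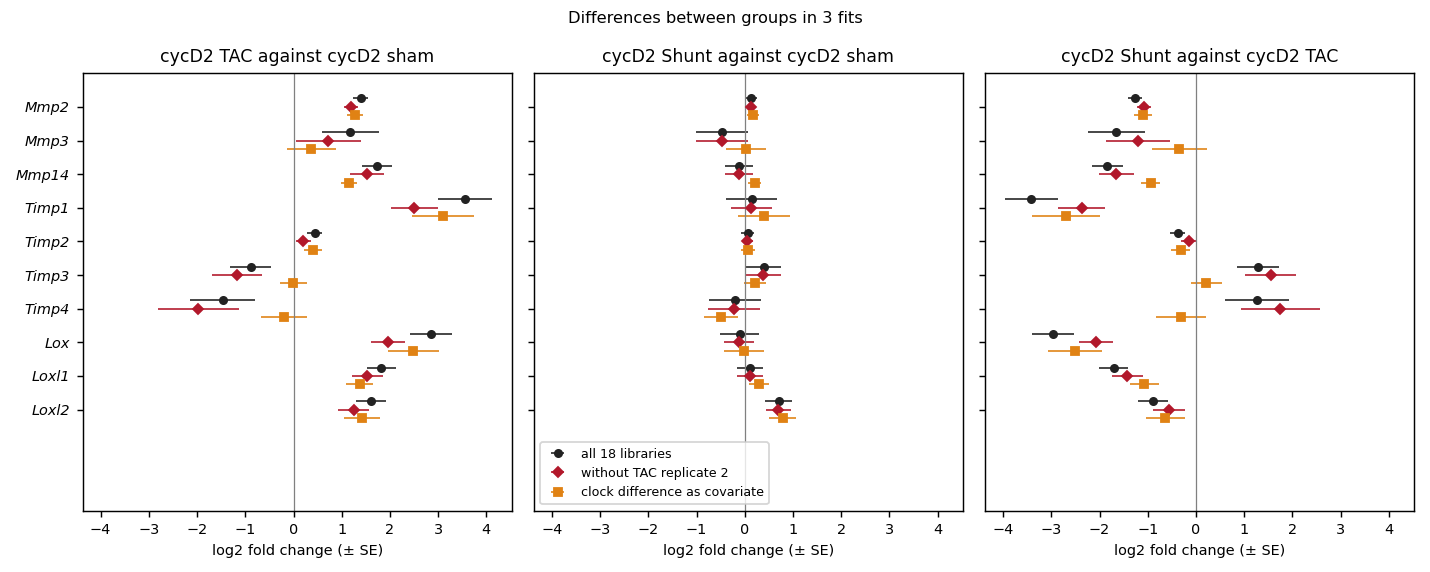
Log2 fold change with its SE for the 10 genes in TAC against sham, Shunt against sham and Shunt against TAC, fitted to all 18 libraries (circles), without the library labelled cycD2 TAC replicate 2 (diamonds) and with the Arntl minus Dbp difference as a covariate (squares). Timp1 and Lox have the largest differences in the panels with TAC, the squares of Timp3 and Timp4 lie near 0 there, and in Shunt against sham most points lie near 0.

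Under volume load, none of the 10 genes differed between Shunt and sham by edgeR's quasi-likelihood test, beside 0.108% of all genes called higher and 0.134% lower in Shunt. DESeq2 called 0 of the 10, beside 116 higher and 116 lower of 14876 genes. At an unadjusted p under 0.05 edgeR's test gave 1 higher (Loxl2) and 0 lower. The share of all genes at that rule was not computed. The median log2 fold change was 0.09 over the 10 genes, against 0.004 over all genes, and every Shunt range overlapped its sham range, while 1.79% of all genes lay wholly above and 2.3% wholly below. Shunt averaged 119.8 ± 13.3 CPM of Mmp2, against 109 ± 19.4 CPM in sham (SD, n = 5 each), with a 95% interval of the log2 fold change of -0.15 to 0.41. For Timp2 the interval was -0.23 to 0.35. Timp1 (-0.98 to 1.27), Lox (-0.97 to 0.75), Mmp14 (-0.72 to 0.49) and Loxl1 (-0.46 to 0.69) had wider intervals, and each upper bound was below the TAC against sham change of that gene. The intervals of Mmp3 (-1.63 to 0.68), Timp3 (-0.37 to 1.16) and Timp4 (-1.36 to 0.94) also held 0.

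Loxl2 averaged 36.1 ± 14.8 CPM in Shunt and 22.1 ± 5.08 CPM in sham (SD, n = 5 each). Shunt replicates 1, 2, 4 and 5 lay above every sham library and Shunt replicate 3 below every sham library. The log2 fold change was 0.71 ± 0.28 (SE, 95% interval 0.12 to 1.29), with an adjusted p of 0.2611. Shunt replicate 3 was the lowest Shunt library for 8 of the 10 genes, and the share of all genes lowest there was not computed. All Shunt libraries lacked Y-linked expression and all sham libraries had it, as did all WT libraries, so differences that go with sex and with the Shunt cannot be told apart in these comparisons.

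Between the 2 loads, 6 of the 10 genes were lower in Shunt than in TAC and 1 was higher, beside 13.6% of all genes called lower and 13.3% higher. Lower in Shunt were Timp1 (log2 fold change -3.42 ± 0.55, adjusted p = 4.61e-04), Lox (-2.97 ± 0.43, 2.04e-04), Mmp14 (-1.84 ± 0.32, 6.84e-04), Loxl1 (-1.71 ± 0.30, 8.68e-04), Mmp2 (-1.26 ± 0.15, 3.22e-05) and Loxl2 (-0.90 ± 0.31, 0.0389). For the first 5 of these the groups did not overlap, which held for 12.5% of all genes, and for Loxl2 they did. Timp3 was higher in Shunt (279 ± 95.4 CPM, n = 5) than in TAC (115 ± 33.7 CPM, n = 3), with a log2 fold change of 1.28 ± 0.44 (adjusted p = 0.0405). Every Shunt library had more Timp3 than every TAC library, and 12.2% of all genes were separated in this way. The Timp3 call is lost without any 1 of TAC replicates 1, 2 and 4 or Shunt replicates 1, 3, 4 and 5 (log2 fold change 1.09 to 1.55), and the Loxl2 call without TAC replicate 1 or 2 or Shunt replicate 2, 3 or 4 (-0.90 to -0.56). Loxl2 also did not pass with no filter, the clock or atrial covariate or the 2 groups fitted alone (adjusted p = 0.0618 to 0.3054). Mmp3 (-1.65, 95% interval -2.92 to -0.39, adjusted p = 0.0503), Timp2 (-0.38, -0.71 to -0.05, 0.0828) and Timp4 (1.26, -0.17 to 2.68, 0.1788) did not pass. Mmp3 did pass with DESeq2, the stricter filter, the atrial covariate, the 2 groups fitted alone, without TAC replicate 1 or without Shunt replicate 2 (adjusted p = 0.0245 to 0.0448), and its adjusted p ran to 0.7210 over the alternatives. This comparison and TAC against sham share the TAC libraries.

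Without TAC replicate 2, 5 genes were lower in Shunt and none was higher, beside 9.03% and 8.95% of 15033 genes. Mmp2, Mmp14, Timp1, Lox and Loxl1 kept their calls, Loxl2 was at -0.56 and Timp3 at 1.55 (adjusted p = 0.0586, and 0.0141 to 0.6841 over the alternatives). Adjusted for the clock difference, 5 genes were again lower and none was higher, beside 1053 and 1074 of 14876 genes. Timp3 was then at 0.22 (adjusted p = 0.6841).

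Timp3 and Timp4 split by clock phase within sham and within WT. The share of all genes that split by phase, in either direction, was not computed. In the libraries with Dbp above Arntl, Timp3 had 204 to 355 CPM in sham (replicates 3 to 5) and 244 to 266 CPM in WT (replicates 4 and 5), while in those with Arntl above Dbp it had 105 to 146 CPM in sham and 94.7 to 122 CPM in WT. All TAC libraries had Arntl above Dbp and 87.2 to 152 CPM of Timp3, inside or near the range of the sham and WT libraries of the same phase. All Shunt libraries had Dbp above Arntl, and replicate 2, whose difference was the nearest to 0, had the lowest Timp3 of the group (167 CPM). Among the other Shunt libraries Timp3 did not follow the difference, with 313 CPM in replicate 5 (-4.44) and 230 CPM in replicate 3 (-8.42). Timp4 had 29.3 to 47.2 CPM in sham and 56.3 to 71.6 CPM in WT with Dbp above Arntl, against 14.0 to 15.7 CPM in sham and 13.4 to 30.8 CPM in WT with Arntl above Dbp. The split of Timp4 did not extend to Shunt, where 8.57 to 38.3 CPM with Dbp above Arntl overlapped the sham and WT libraries of the opposite phase. Mmp14, Mmp3 and Loxl1 split the other way within sham and within WT, though the Mmp3 ranges in sham nearly met. Mmp14 had 11.6 to 12.6 CPM in sham and 15.1 to 15.2 CPM in WT with Dbp above Arntl, against 25.4 to 30.9 CPM in sham and 22.7 to 25.9 CPM in WT with Arntl above Dbp. Mmp3 had 1.38 to 6.55 CPM in sham and 2.36 to 2.98 CPM in WT with Dbp above Arntl, against 6.72 to 12.1 CPM in sham and 5.60 to 9.64 CPM in WT with Arntl above Dbp. For Loxl1 the values were 28.3 to 41.4 CPM in sham and 37.9 to 40.4 CPM in WT with Dbp above Arntl, against 48.1 to 69.4 CPM in sham and 51.8 to 57.4 CPM in WT with Arntl above Dbp. In Shunt, Loxl1 (23.0 to 58.2 CPM) and Mmp3 (3.02 to 7.18 CPM) overlapped the sham and WT libraries of the opposite phase. Mmp14 in Shunt (10.7 to 22.1 CPM) lay below them. Adjusted for the clock difference, the TAC against sham log2 fold change was -0.003 for Timp3, -0.19 for Timp4, 0.37 for Mmp3, 1.15 for Mmp14, 1.38 for Loxl1 and 1.28 for Mmp2, of which Mmp14, Loxl1 and Mmp2 passed the test. Phases were read from the same libraries, the labels give no collection time, and the difference of Shunt and TAC in phase cannot be told apart from the difference in load.

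**Figure D3:**
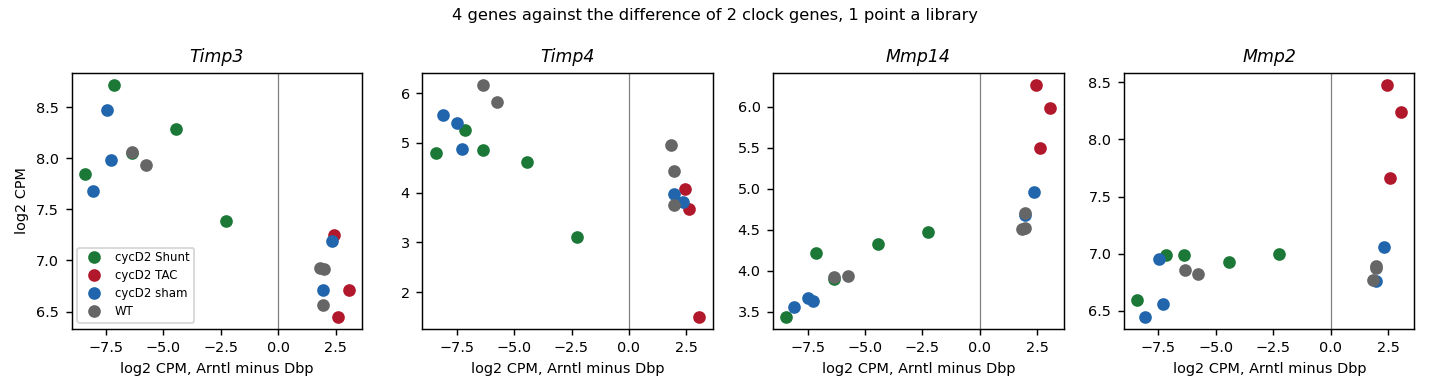
Log2 CPM of Timp3, Timp4, Mmp14 and Mmp2 (vertical axes) against the log2 CPM of Arntl minus that of Dbp (horizontal axes), 1 point a library, coloured by group. Within sham and within WT, Timp3 and Timp4 are lower and Mmp14 is higher in the libraries right of 0, and for Mmp2 the 3 TAC points alone stand above the rest.

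Between sham and WT, none of the 10 genes differed by edgeR's quasi-likelihood test, beside 13.5% of all genes called higher and 14.9% lower in sham. DESeq2 also called none of the 10, beside 2258 higher and 2247 lower of 14876 genes. At an unadjusted p under 0.05 edgeR's test gave none either, and the share of all genes was not computed there. The log2 fold changes ran between -0.61 for Lox (95% interval -1.46 to 0.24, adjusted p = 0.2759) and 0.33 for Timp3 (-0.44 to 1.09). Mmp2 (-0.35 to 0.21) and Timp2 (-0.30 to 0.28) had the narrowest intervals. Against WT, the same 7 genes were higher in TAC as against sham and Timp4 was lower (log2 fold change -1.86 ± 0.68, adjusted p = 0.0473), beside 17.1% and 16.9% of all genes. The Timp4 call was lost without TAC replicate 1 (-1.40) or 4 (-1.99) or WT replicate 3, 4 or 5 (-1.93 to -1.51), and without TAC replicate 2 Timp4 was at -2.34 and Timp2, no longer called, at 0.21. The Timp2 call against WT was also lost without TAC replicate 1 (0.49) or WT replicate 1, 2, 3 or 4 (0.38 to 0.45), and with the clock (0.40), Y-linked (0.09) or atrial covariate (0.14) or no filter (0.44). Timp4 likewise did not pass with those covariates (-1.67 to -0.965), no filter (-1.85), the replicate block (-1.46) or the 2 groups fitted alone (-1.84). In the other load group, Loxl2 was the only one of the 10 called against WT (log2 fold change 0.91 ± 0.28, adjusted p = 0.0187), beside 15.6% of all genes called higher and 16.7% lower. Shunt replicate 3 lay below every WT library and the other Shunt libraries above every WT library, and the call is lost without Shunt replicate 1 (0.70). The comparisons with WT share the WT libraries, and the transgene and operations differ together there.

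By group mean, TAC had the highest level of 8 genes. For Mmp2, Mmp14, Timp1, Lox, Loxl1 and Loxl2 the step to the next group passed the test. The steps between neighbours among the other 3 groups did not. Loxl2 did pass in Shunt against WT (log2 fold change 0.91). Its step from TAC to Shunt, where the groups overlapped, was lost without TAC replicate 2 (-0.56 in Shunt against TAC). Mean Timp3 was ordered Shunt, sham, WT and TAC from high to low, and mean Timp4 WT, sham, Shunt and TAC, and no step between neighbours in either order passed. On a scale per kilobase of exon, Mmp2 averaged 35.5 CPM per kb in Shunt and 85.1 in TAC, against 32.4 in sham and 34.1 in WT. It made up 82.7% to 87.4% of the summed level of Mmp2, Mmp3 and Mmp14 in each group. Among the TIMPs, Timp1 took 3.60% of the summed level per kb in Shunt, 27.3% in TAC, 3.78% in sham and 4.34% in WT. The range of that share over the 3 TAC libraries was 14.7% to 41.8%. Timp2 was the most abundant TIMP per kb in each group by mean (52.7% in Shunt, 57.3% in TAC, 56.8% in sham and 60.4% in WT). Reads in the bases that Timp3 shares with Syn3 may be missing from these shares, which would lower that of Timp3. Loxl1 led the lysyl oxidases (60.6% in Shunt, 67.9% in TAC, 65.8% in sham and 68.8% in WT), and Loxl2 took 27.4% in Shunt and 17.3% in TAC, against 20.6% in sham and 16.9% in WT. These shares are descriptions, include TAC replicate 2 and were not tested.

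**Figure D4:**
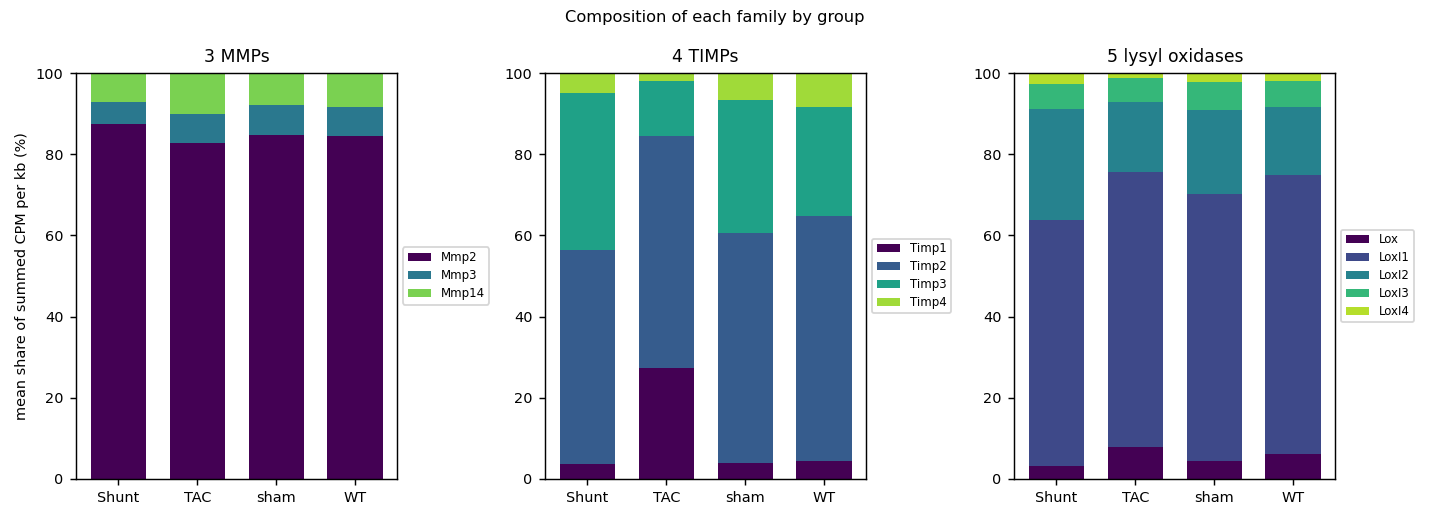
Mean share (percent) of each gene in the summed level per kilobase of exon of 3 metalloproteinases, 4 TIMPs and 5 lysyl oxidases (Loxl3 and Loxl4 included), by group. The Timp1 part is 27.3% in TAC and at most 4.34% in the other groups.

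The other genes of the system are given by list, as counts beside the shares of all genes given above. Of 13 collagen and elastic fibre substrates of the lysyl oxidases and proteases, 13 were higher in TAC than in sham (median log2 fold change 1.88). They included Col5a1 (1.50, adjusted p = 5.42e-05), Col1a2 (1.96, 8.14e-05), Efemp2 (1.00, 1.01e-04) and Col1a1 (2.31, 1.17e-04), which encode fibrillar collagen chains and, for Efemp2, a fibulin that aids cross-linking. Without TAC replicate 2 all 13 were still higher (median 1.54). In Shunt against TAC 13 were lower (12 without TAC replicate 2), and in Shunt against sham none was called. Of 9 genes of other lysyl oxidases and of their activation, 5 were higher and 1 lower in TAC than in sham. Bmp1, which cleaves the Lox precursor and procollagen, was at 0.98 (adjusted p = 1.58e-05), Loxl3 at 1.66 (2.04e-04) and the procollagen protease enhancer Pcolce at 1.29 (3.44e-04). The Bmp1 relative Tll2 had a log2 fold change of -1.53 (adjusted p = 0.0100). Without TAC replicate 2 this list had 3 higher and 1 lower, and Loxl3 was at 1.02.

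Of 20 other metalloproteinases, 10 had enough counts to test, and in TAC against sham 3 were higher (Mmp23 1.64, adjusted p = 6.85e-05; Mmp12 1.14, 0.0322; Mmp19 0.66, 0.0409) and 1 was lower (Mmp15 -0.33, 0.0132). Mmp9, gelatinase B, was low, with 5 to 31 raw counts per library in Shunt, 7 to 22 in TAC, 10 to 29 in sham and 13 to 41 in WT. The neutrophil gene Mmp8 had at most 4 counts in any library. Of 23 ADAM and ADAMTS proteases tested, 12 were higher and 2 lower in TAC than in sham, with Adamts20 (2.96), Adam12 (2.31) and Adamts10 (0.97) among the first and Adamts3 (-1.52) among the second. The list of the plasminogen system and other protease inhibitors had 5 of 9 tested higher and none lower. They included the plasminogen activator Plat (1.15) and the inhibitor Serpine2 (0.44), and 2 serpins that do not act as protease inhibitors, Serpinf1 (1.77), which makes the secreted factor PEDF, and Serpinh1 (0.92), a collagen chaperone. Of 10 cathepsins, lysosomal proteases, 3 were higher (Ctsk 1.51, Ctsz 1.05, Ctsa 0.32) and 1 was lower (Ctsc -0.52). Without TAC replicate 2, the counts higher and lower in TAC were 1 and 0 for the other metalloproteinases, 9 and 2 for ADAM and ADAMTS, 3 and 0 for the plasminogen list and 2 and 1 for cathepsins. Mmp12 (1.05), Mmp19 (0.22), Mmp15 (-0.31), Serpine2 (0.22) and Ctsa (0.17) then no longer passed, and Adamts20 was at 2.05. In Shunt against sham, edgeR's test called no member of these lists.

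Many markers of the cells that make matrix were also higher in TAC than in sham. All 6 fibroblast markers (Pdgfra, Tcf21, Dcn, Lum, Col1a1 and Col1a2) were higher in TAC than in sham (median log2 fold change 1.02), of which Col1a1 and Col1a2 are also in the substrate list, and without TAC replicate 2 the count was 3. In TAC against WT, with all libraries, 3 of the 6 fibroblast markers were higher (Col1a1, Col1a2 and Lum). The summed level of the 6 was 1020 to 1530 CPM in Shunt and 2016 to 4688 CPM in TAC, against 959 to 1624 CPM in sham and 1210 to 1500 CPM in WT. Of 4 markers of activated fibroblasts (Postn, Cthrc1, Acta2 and Comp), 2 were higher, Cthrc1 (3.20) and Postn (2.89), and the sum was 256 to 1056 CPM in Shunt and 897 to 1635 CPM in TAC, against 336 to 1016 CPM in sham and 335 to 465 CPM in WT. Without TAC replicate 2 the same 2 were called, Cthrc1 at 1.68 and Postn at 2.18, and the median of the 4 was 1.195, against 2.095 with it. In Shunt against TAC the same 2 were lower with that library and neither was called without it. Smooth muscle and pericyte markers had 3 of 4 higher, endothelial markers 2 of 4, mesothelial markers 1 of 4 and macrophage markers 0 of 5 in TAC against sham, and without TAC replicate 2 these counts were 2, 1, 0 and 0. Neutrophil markers summed to at most 2.53 CPM in any library. Of 5 ventricular muscle markers, 3 were lower in TAC (Tnni3, Myh6 and Tnnt2), and 2 without TAC replicate 2. The part of these cell types in the changes of the 10 genes was not tested.

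The 3 protein-coding genes most like each member were ranked by the root mean square (RMS) difference of mean-centred log2 CPM over the 18 libraries, among 13609 genes. Nearest to Mmp2 were Emilin1 (RMS 0.121), Mrc2 (0.141) and Col5a1 (0.159), against a median of 0.579 over all genes. Mmp14 was nearest to Loxl1 (0.204), then Ckap4 (0.220) and Sh3pxd2b (0.223), against a median of 0.823. Loxl1 was nearest to Col3a1 (0.181), then Mmp14 and Fbn1 (0.207), so 2 of the 10 genes stood in each other's nearest 3. Among the genes nearest to Timp1 were Postn (0.433) and Tnc (0.509), with a median of 1.42. Lox was nearest to Thbs4 (0.458), Srpx (0.496) and Eln (0.508), with a median of 1.13. Loxl2 was nearest to Nbl1 (0.202), Dbn1 (0.207) and Adamts2 (0.217), with a median of 0.774. Timp2 varied little and was nearest to Pros1 (0.121), Reck (0.122) and Tmem176b (0.124), with a median of 0.354. Timp3 was nearest to Klf9 (0.246), Spsb1 (0.287) and Slc25a33 (0.289), with a median of 0.723, and Timp4 to Adh1 (0.394), Mid1ip1 (0.541) and Dgat2 (0.543), with a median of 1.10. Mmp3 was nearest to Cdh11 (0.508), Clmp (0.539) and Myoc (0.541), with a median of 1.01. Between members, the farthest pair was Timp1 and Timp4 (2.20). Libraries of a group share treatment and often clock phase, so these distances are a description.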

How the data were processed

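Per the labels' protocols, left ventricular RNA was extracted with an RNeasy Fibrous Tissue kit and sequenced as TruSeq RNA v2 libraries, which are unstranded. Each deposited value is a raw read count of an Ensembl gene, with 1 table per library; the annotation release and strand setting are not given in the sources used here. The submitters' processing notes name, in alphabetical order, CASAVA 1.8.2, DESeq2 1.8, FastQC, HTSeq 0.6.1p1, SAMtools 0.1.19 and STAR 2.3.0e, and the builds GRCm38 and mm10. The 5 summary lines of each table were left out; reads with no feature were 15.03% to 19.87% in Shunt, 13.64% to 14.86% in TAC, 14.91% to 17.9% in sham and 19.0% to 22.78% in WT. Symbols, positions and exon lengths came from GENCODE M21 on GRCm38, which matched 36602 of 38355 identifiers, and promoters from RefSeq on GRCm38.p6.

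Genes were kept with filterByExpr (minimum count 10), scaled by TMM and fitted in 1 model of the 4 groups by edgeR 4.0.16 (robust quasi-likelihood test, R 4.3.3), with DESeq2 1.42.0 as an alternative. A gene was called at an adjusted p under 0.05 within its comparison. An SE was taken as |log2 fold change| divided by √F, and a 95% interval as that SE times the t quantile. The steps were tested on simulated data. The members and lists were chosen with earlier results of these data known, and genes outside the 10 were named by smallest p in their list, up to 4, or as the 3 most alike, of which 1 gene is not reported here. Mmp8 and Mmp9 are named from their list for their low counts, chosen after their values were seen, and Ddx3y, Xist, Arntl, Dbp, Syn2 and Syn3 describe libraries or overlaps. Libraries of a group were distinct (chi-square per gene at least 6.81). Residuals of libraries with the same replicate number correlated at 0.129, 0.151 and 0.157 in TAC and sham, above the limit of 0.1 in each pair, so the block is given as an alternative. TAC replicates 1 and 2 correlated best with sham replicates 3 and 5, and TAC replicate 4 with sham replicate 4. In Shunt and sham the same-number correlations ran from -0.264 to 0.318. Alternatives were another scaling, no filter, a stricter filter, the block, clock, Y-linked and atrial covariates, DESeq2, 2 groups alone and each library left out.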

Additional observations from a re-analysis of the deposited data

Results flagged for a closer look

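In 30 groups of 5 libraries (10 genes in Shunt, sham and WT), 2 had a library farther from the others than Dixon's 95% limit, and chance gives about 1 in 20. Mmp2 in Shunt replicate 3 was at 6.59 log2 CPM, with the other Shunt libraries at 6.93 to 6.99 (gap over range 0.835). Timp2 in Shunt replicate 3 was at 7.12 log2 CPM, with the others at 7.46 to 7.59 (0.717). Shunt replicate 3 was also the lowest of all 18 libraries for 6 of the 10 genes (Lox, Loxl1, Loxl2, Mmp14, Timp1 and Timp2). The share of all genes lowest in that library was not computed.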

How the results depend on the processing

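For TAC against sham, 155 of 170 values of the 10 genes under the alternatives kept their direction and side of the threshold and none turned. Size was not counted. Timp3, which went from -0.89 to -0.003 with the clock covariate, and Timp4, from -1.47 to -0.19, are among those kept. Direction and side also held for 169 of 190 in Shunt against sham, 139 of 170 in Shunt against TAC, 168 of 190 in sham against WT and, for the genes called there, 110 of 136 in TAC against WT and 16 of 19 in Shunt against WT. With the Y-linked covariate, 1 gene was higher in TAC against sham and 1 against WT, and Mmp14 (1.27), Timp1 (1.83), Timp2 (0.12), Lox (1.42), Loxl1 (1.26) and Loxl2 (0.87) no longer passed against sham; the fit rests on TAC replicates 1 and 2 against replicate 4, and the cause was not tested. Over all genes that covariate left 287 higher and 196 lower in TAC against sham, against 2440 and 2160 without it.

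In Shunt against TAC, 0 genes were higher with no filter, the replicate block (Timp3 1.09, Timp2 -0.35 lower), or the clock, Y-linked or atrial covariate. Leaving out a library gave 0 to 1 higher and 5 to 7 lower. In TAC against WT, 0 were lower with no filter, the replicate block, any of the 3 covariates or 2 groups alone, and 0 to 1 with a library left out. In Shunt against WT, 0 were higher with the Y-linked or atrial covariate, 1 was lower with the clock or atrial covariate, and 0 to 1 were higher with a library left out. The block changed no call of the 10 genes in TAC against sham.

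Directions turned in these cases. In Shunt against sham, the clock covariate gave Mmp3 0.025 and Mmp14 0.21, and the Y-linked covariate gave Mmp2 -0.67, Timp1 -2.29, Timp2 -0.46, Timp3 -0.20, Timp4 0.29, Loxl1 -0.76 and Loxl2 -0.41. In Shunt against TAC, the clock covariate gave Timp4 -0.31. In Shunt against WT, the Y-linked covariate gave Loxl2 -0.23. In sham against WT, no filter gave Timp2 0.003, the clock covariate gave Mmp14 0.05, Timp1 0.082, Timp2 0.001 and Loxl1 0.032, and the atrial covariate gave Mmp3 -1.21. With a library left out, Shunt against sham ran -0.26 to 0.075 for Lox, -0.017 to 0.32 for Loxl1, -0.25 to 0.13 for Mmp14, -0.069 to 0.465 for Timp1, -0.005 to 0.136 for Timp2 and -0.41 to 0.012 for Timp4. Likewise, sham against WT ran -0.32 to 0.013 for Loxl1, -0.37 to 0.014 for Mmp14, -0.13 to 0.011 for Mmp2, -0.32 to 0.48 for Mmp3, -0.38 to 0.14 for Timp1 and -0.089 to 0.057 for Timp2. None of these values was called in the fit to all libraries except Loxl2 in Shunt against WT. Over all genes, DESeq2 called 116 higher and 116 lower in Shunt against sham, against 16 and 20 by edgeR. Lox, Timp1 and Mmp3 have the fewest counts, so depth limits them most.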
